A study of Mus musculus with 8 samples.

Results

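The genes for the proteins of the cytosolic ribosome were followed in sorted mouse B cells, on Affymetrix expression arrays that carry 12488 probe sets. A gene was included where a probe set was annotated with a single symbol of the form Rpl or Rps plus a number and its suffix, or was Rplp0 or Rpsa, and the ribosomal S6 kinases were excluded. This gave 49 probe sets for 35 of the 8252 genes that have a probe set with 1 symbol, namely 17 genes of the large (60S) subunit and 18 of the small (40S) subunit. Where a gene had several probe sets, the one with the highest mean over the 8 arrays represents it.

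The series set germinal centre B cells formed with T cell help (TD, T-dependent) beside those formed without it (TI, T-independent), with 4 groups of 2 arrays. All mice were QMxB6 F1 hybrids, and each array holds the RNA of cells pooled from several mice, described by the submitters as biological replicates. Resting cells (GL7-, B220+) came from unimmunised mice, in pools of 6 and 9. TD day 4 mice had been primed with 50 ug of alum-precipitated chicken gamma-globulin and heat-killed B.pertussis and were challenged 5 weeks later with 50 ug of soluble NP-CGG (pools of 6 and 9). TD day 10 mice were not carrier-primed and received 50 ug of alum-precipitated NP-chicken gamma-globulin with heat-killed B.pertussis (2 pools of 6). TI day 4 mice received 30 ug of NP-Ficoll (pools of 4 and 10). Cells of the 3 immunised groups were enriched magnetically and then sorted as GL7+ B220+, so antigen, adjuvant, priming and day differ together between some of the groups.

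Ribosomal proteins are needed in matched amounts, and their messages are among the most abundant in most cells. Nearly all of these messages begin with a run of pyrimidines, the terminal oligopyrimidine or TOP tract, through which mTOR signalling sets their translation without a like change in their amount. B cells that enter a germinal centre grow and divide rapidly, and new ribosomes are needed for that growth.

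The promoters of some of the genes are shown first, as 30-base windows from RefSeq on GRCm38.p6, each on its gene's own strand. Of the 35 genes, 28 had a sequence in the RefSeq table, which runs from 250 bases before the transcription start to 50 after it. Each window is centred near the match closest to the start, with capitals for CTTTCC, a pyrimidine run of the TOP kind, or CTTCCG, the core letters of ETS-family motifs. Rps24 had no match on its own strand, so its window spans the start. These windows cover the gene whose signal passed the test (Rps24), 4 others whose resting arrays were both the highest (Rps10, Rps18, Rps7 and Rpl37a) and the bright gene with the opposite difference (Rpl13a).
Rps24, chr14:24490668-24490697, + strand: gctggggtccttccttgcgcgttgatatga
Rps10, chr17:27635223-27635252, - strand: gcacgccccttcCTTTCCagcctccgcctc
Rps18, chr17:33955656-33955685, - strand: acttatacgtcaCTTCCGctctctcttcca
Rps7, chr12:28635929-28635958, - strand: tccacccacctaCTTCCGctgtccccacct
Rpl37a, chr1:72711232-72711261, + strand: gaggtcgcgtcaCTTCCGctcgccggtcta
Rpl13a, chr7:45128719-45128748, - strand: caagacctcctcCTTTCCcaggcggctgcc

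On the gene's own strand, CTTTCC was present in 14 of the 28 member promoters (50.0%), against 16.0% of all 27025 genes in the same table. On either strand, CTTCCG was present in 19 of the 28 (67.9%), against 18.8% of all genes. The 2 motifs can overlap by 1 base. Rpl13a and Rps10, whose differences had opposite signs and did not pass the test, carry the same pyrimidine letters near their starts. A match is a run of letters and not a measured binding site. Matches were counted anywhere in a gene's sequence in the table, so those of CTTTCC are not a count of TOP tracts at the start.

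Of the 35 genes, 32 had a signal above the floor of 81 units (the 50th percentile of all deposited values) on at least 2 arrays and were tested, 15 of the large and 17 of the small subunit. The 3 that were not tested were Rpl35a, Rps14 and Rpl39l. Rpl35a, a large subunit protein mutated in some families with Diamond-Blackfan anaemia, read between -707 and -329 on all 8 arrays. Rps14, a small subunit protein, read between 24 and 72, and Rpl39l, a paralog of Rpl39 known from the testis, averaged 3.8. How values below 0 arose is not given in the sources used here, and intensities of different probe sets are not levels that can be ranked between genes. No probe set of a single symbol gave Rps6, Rpl5, Rpl11, Rps27a, Rpl3l, Rpl10l or Rpl22l1, so these are not members.

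The tested genes fell into bright and dim probe sets. A total of 20, with 10 from each subunit, averaged over 1000 units. Apart from Rpl13a at 1174, these 19 averaged 5533.4 units or more, and 18 of the 20 were among the 100 brightest probe sets tested. The other 12 averaged 610.5 units or less. The limit of 1000 was chosen after the values were seen. The highest reading of any probe set lay between 20165 and 26623 on the 8 arrays, and Rpl41 at 24748 on resting array 1 came close to that array's maximum of 25276. Whether the brightest readings were compressed was not tested.

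As a fact of the whole series, the arrays shared a trimmed mean of about 200.2 units and were read as scaled to it, so a signal is relative to the rest of the RNA and not an amount per cell. In pooled RNA, fewer cells of a type and less RNA per cell cannot be told apart. Of 8 B cell markers, 7 were on the array and none stayed below the floor. Their summed signal was 33786 and 30827 units on the resting arrays and 21020 to 25116 on the germinal centre arrays. Germinal centre markers (4 of 5 on the array) summed to 759 and 642 units in resting cells and 1561 to 3299 in the sorted germinal centre cells. Red cell markers (5 of 10 on the array, Epb42 never above the floor) summed to 25147 and 22674 units on the resting arrays against 713 to 2866 elsewhere. Most of the resting sum was Hba-a1 and Hbb-b2, while Slc4a1 was higher in TI day 4 (1700 and 2317) than in resting cells (724 and 707). Neutrophil markers (8 of 9, Ngp never above the floor) summed to 6542 and 6675 against 1734 to 2823. Of the 7 tested, 6 had a negative difference between germinal centre and resting cells. The other was Mpo, with 114 and 119 in resting cells against 123 to 182. Plasma cell markers (5 of 5 on the array) had their highest sums in TI day 4, with 9726 and 12923 units against 1919 to 3932. Most of this was Jchain (7347 and 9356) and Xbp1 (2072 and 2951). Irf4 read 125 and 516 in TI day 4 against 292 and 511 in resting cells, and Sdc1 and Prdm1 were above the floor on 1 array each. Macrophage markers (9 of 10, Adgre1 never above the floor) also had their highest sum in TI day 4, with 5923 and 4959 against 1373 to 3264. Apoe alone read 4213 and 3371 of that sum. C1qa went the other way, with 708 and 597 in resting cells against 130 and -13 in TI day 4. So did C1qc (177 and 171 against -287 and -456) and Vcam1 (341 and 421 against 207 and 44). Lyz2 did too, at 124 and 300 against 43 and 51. Of the 8 macrophage markers tested, 4 had a positive and 4 a negative difference between TI day 4 and resting cells. Of 7 T cell markers on the array, 5 (Cd3d, Cd3e, Cd8a, Cd8b1 and Thy1) were never above the floor. Cd3g was above it on 2 arrays. Cd4 was above it on all 8, with 292 and 339 in resting cells and 366 to 710 in germinal centre cells. RNA integrity can be read from Gapdh control probes at both ends of the transcript, and the signal at the 3' end over that at the 5' end was 0.867 and 1.59 in resting, 0.981 and 0.954 in TD day 4, 0.836 and 0.896 in TD day 10, and 1.24 and 1.68 in TI day 4. Several of the marker sums move with the groups, while the Gapdh ratio also differed widely between the 2 resting arrays. The part of these values in the ribosomal protein differences was not tested, apart from a fit with the Gapdh ratio as a covariate.

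Of the 32 tested genes, 24 read lower in germinal centre than in resting cells, and Rps24 alone passed the test. The median log2 difference was -0.29 as deposited and -0.08 under quantile normalization. Rps24 is a small subunit protein needed to process the precursor of 18S ribosomal RNA. It read 20511 and 19998 in resting cells, 14701 and 14519 in TD day 4, 13753 and 13570 in TD day 10, and 14637 and 15451 in TI day 4. Both resting arrays lay above all 6 germinal centre arrays, and the 2 resting arrays were close to each other. The group means were 20254.5 ± 363, 14610.0 ± 129, 13661.5 ± 129 and 15044.0 ± 576 (SD, n = 2 each). Against the mean of the 3 germinal centre groups, Rps24 fell by 0.49 ± 0.11 (SE) on the log2 scale, a 1.40-fold lower signal (limma, Benjamini-Hochberg adjusted p = 0.041).

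The call depended on the arrays and settings used. Leaving out any 1 of the 8 arrays took the adjusted p to between 0.079 and 0.117, and under quantile normalization the difference was -0.23 (adjusted p = 0.33). Of 21 alternatives, all gave a lower Rps24 signal and 5 kept the call. The second Rps24 probe set read 617 and 377 in resting cells and 281 to 478 in germinal centre cells, so its groups overlapped, and its log2 difference was -0.40 ± 0.25 (SE, adjusted p = 0.40).

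Over the 32 tested genes, 0 were called higher and 1 was called lower in germinal centre cells than in resting cells, while 13.2% of all 7253 probe sets tested were called (7.73% higher, 5.5% lower). At an unadjusted p under 0.05 there were 13 genes, against 25.8% of all probe sets. The median over all probe sets tested was 0.00, against the -0.29 of the members, of which 24 were negative and 8 positive. In 16 genes both resting arrays lay above all germinal centre arrays, and in 2 both lay below, against 12.1% and 12.7% of all probe sets. Among the 20 bright genes, 14 had both resting arrays highest and Rpl13a had both lowest, and the median was -0.34.

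**Figure D1:**
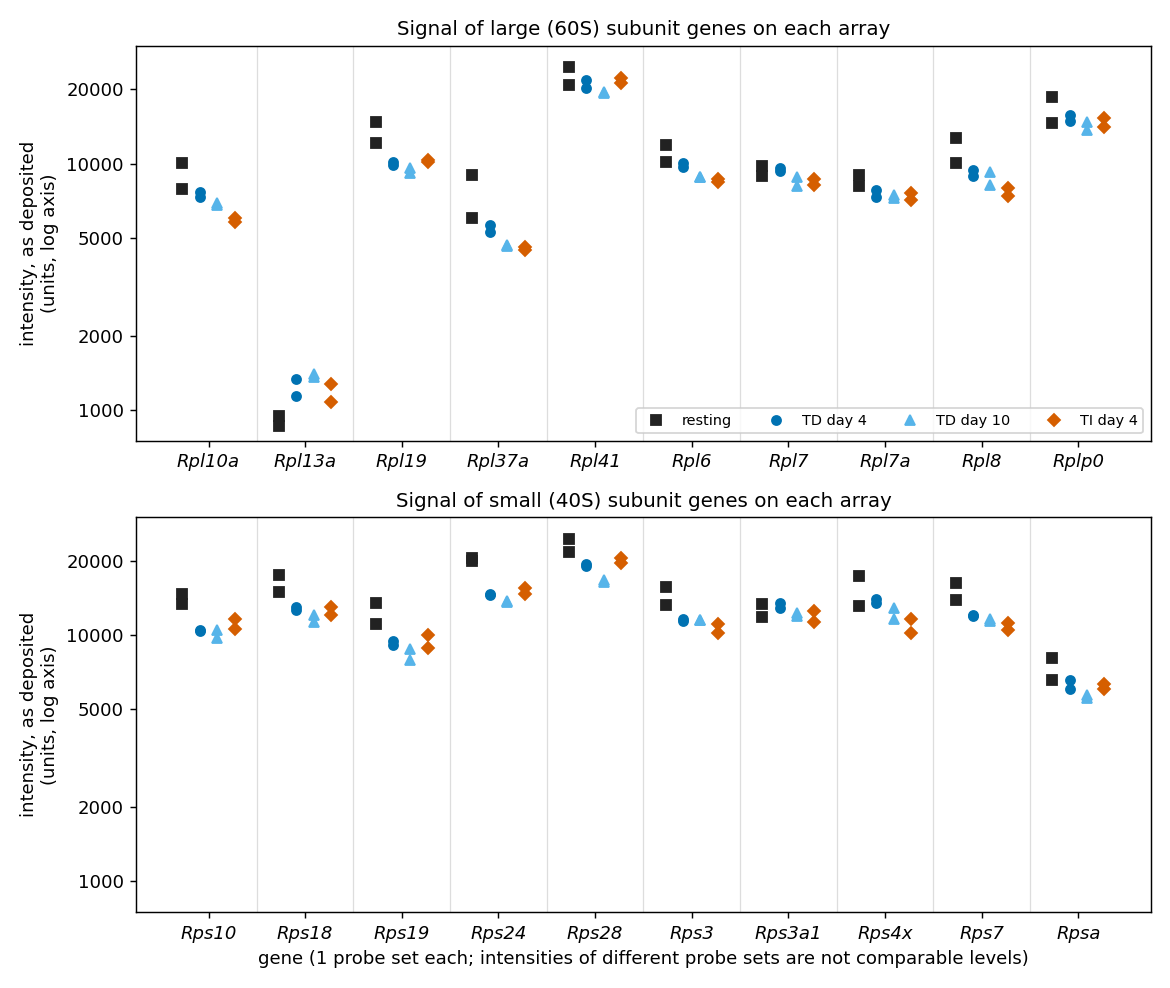
Deposited intensity (log axis) of the 20 bright ribosomal protein genes on each of the 8 arrays, with large subunit genes in the upper panel and small subunit genes in the lower; each marker is 1 array and its shape and colour give the group. The resting arrays (squares) of Rps24, at 20511 and 19998, stand clear of its other arrays. Rpl13a has its resting arrays lowest at 858 and 943, and for Rpl7 and Rps3a1 the resting and germinal centre arrays overlap.

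Among the large subunit genes, Rpl37a, a zinc-binding protein, had the largest difference of the bright genes. It read 9001 and 6010 in resting cells, 5632 and 5258 in TD day 4, 4677 and 4613 in TD day 10, and 4476 and 4600 in TI day 4. Both resting arrays were the highest, but they differed from each other by 2991 units, more than resting array 2 differed from any germinal centre array. On the log2 scale the difference was -0.60 ± 0.18 (SE), with a limma adjusted p of 0.084 that missed the threshold.

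Rpl19, which sits near the exit of the peptide tunnel, read 14674 and 12137 in resting cells, 10185 and 9818 in TD day 4, 9113 and 9603 in TD day 10, and 10109 and 10359 in TI day 4. The resting arrays were again the 2 highest, with a log2 difference of -0.44 ± 0.13 (SE, adjusted p = 0.087). Its dimmer probe set read between 211 and 374, with both resting arrays inside the range of the germinal centre arrays and a difference of 0.06. Rpl10a, which is part of the flexible L1 stalk, read 10045 and 7895, 7644 and 7337, 6796 and 6903, and 6031 and 5811 in the same order of groups. Its groups followed each other without overlap from resting to TI day 4, and its log2 difference was -0.41 ± 0.14 (SE, adjusted p = 0.127). A second Rpl10a probe set, of the kind that can detect related sequences, read 3848 and 3310 in resting cells and 2529 to 2787 in germinal centre cells, with a difference of -0.44 (adjusted p = 0.082).

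Rpl8, a protein close to the peptidyl transferase centre, read 12714 and 10066 in resting cells and 7400 to 9430 in germinal centre cells, with the TI day 4 arrays lowest at 7400 and 7985. Its log2 difference was -0.41 (adjusted p = 0.137). Rpl6 read 11913 and 10117 in resting cells and 8445 to 10038 in the others, and Rpl7a 9023 and 8086 against 7080 to 7792. Resting array 2 lay above the nearest germinal centre array by 79 units for Rpl6 and 294 units for Rpl7a, and the log2 differences were -0.28 and -0.20.

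For Rplp0, Rpl41 and Rpl7 the groups overlapped. Rplp0, the protein at the base of the large subunit stalk and a common reference gene, read 18692 and 14574 in resting cells, 15733 and 14871 in TD day 4, 13671 and 14708 in TD day 10, and 14058 and 15300 in TI day 4. Resting array 2 lay inside the range of the germinal centre arrays, and the log2 difference was -0.17 (95% interval -0.52 to 0.19). Rpl41, a very short basic peptide, read 24748 and 20921 in resting cells and 19379 to 22298 in the others, a difference of -0.13. Rpl7 read 9747 and 8898 against 8093 to 9599, a difference of -0.09.

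Rpl13a was the bright gene with a higher signal in germinal centre cells. It is known outside the ribosome as part of a complex that silences inflammatory messages. It read 858 and 943 in resting cells, 1333 and 1142 in TD day 4, 1403 and 1362 in TD day 10, and 1072 and 1279 in TI day 4. Both resting arrays lay below all 6 germinal centre arrays, and TD day 10 was highest. The log2 difference was 0.49 ± 0.14 (SE, 1.40-fold), with an adjusted p of 0.079 that did not pass. Its probe set is dimmer than those of the other 19 bright genes.

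The bright small subunit genes all had a negative difference, 10 of 10 against 9 of 10 for the large subunit. Rps10 read 14716 and 13345 in resting cells, 10513 and 10340 in TD day 4, 9754 and 10530 in TD day 10, and 10598 and 11587 in TI day 4, and Rps10 is a protein of the mRNA entry side that is modified when ribosomes stall. The lower resting array lay 1758 units above the nearest germinal centre array. The log2 difference was -0.41 ± 0.12 (SE, adjusted p = 0.088). Rps18, on the head of the small subunit, read 17567 and 15005, 13001 and 12693, 11260 and 12043, and 12104 and 12977 in the same order, a difference of -0.40 (adjusted p = 0.109).

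Rps19, the protein most often mutated in Diamond-Blackfan anaemia, read 13510 and 11124 in resting cells, 9471 and 9152 in TD day 4, 7902 and 8805 in TD day 10, and 8882 and 9972 in TI day 4. The difference was -0.44 (adjusted p = 0.102), with both resting arrays highest and TD day 10 lowest. Rps7, which binds the p53 regulator Mdm2 when free of the ribosome, read 16294 and 13814 in resting cells and 10485 to 12006 in germinal centre cells (-0.39, adjusted p = 0.110). Rps3, at the mRNA entry channel, read 15669 and 13229 in resting cells and 10169 to 11566 in the others (-0.36, adjusted p = 0.141). In these 3 genes the distance between the resting arrays was as large as, or larger than, the distance from resting array 2 to the nearest germinal centre array.

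Rps28, on the mRNA exit side, had 2 bright probe sets. The first read 24585 and 21754 in resting cells, 19361 and 19001 in TD day 4, 16457 and 16667 in TD day 10, and 19522 and 20627 in TI day 4. The second read 16463 and 13409, 11828 and 10994, 9793 and 10317, and 11588 and 12298 in the same order. Both put resting cells highest and TD day 10 lowest, with log2 differences of -0.32 (adjusted p = 0.164) and -0.42 (adjusted p = 0.109) between germinal centre and resting cells.

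Rpsa, also known as the laminin receptor precursor, read 8098 and 6576 in resting cells and 5540 to 6557 in the others, with resting array 2 only 19 units above the nearest array (-0.28). Rps4x, encoded on the X chromosome, read 17439 and 13166 in resting cells and 10175 to 13953 in the others, so its groups overlapped (-0.31, adjusted p = 0.300). Its 4 other probe sets had means below 0 in both groups. Rps3a1 read 13396 and 11857 in resting cells and 11265 to 13521 in germinal centre cells, with a difference of -0.02 (95% interval -0.33 to 0.28).

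**Figure D2:**
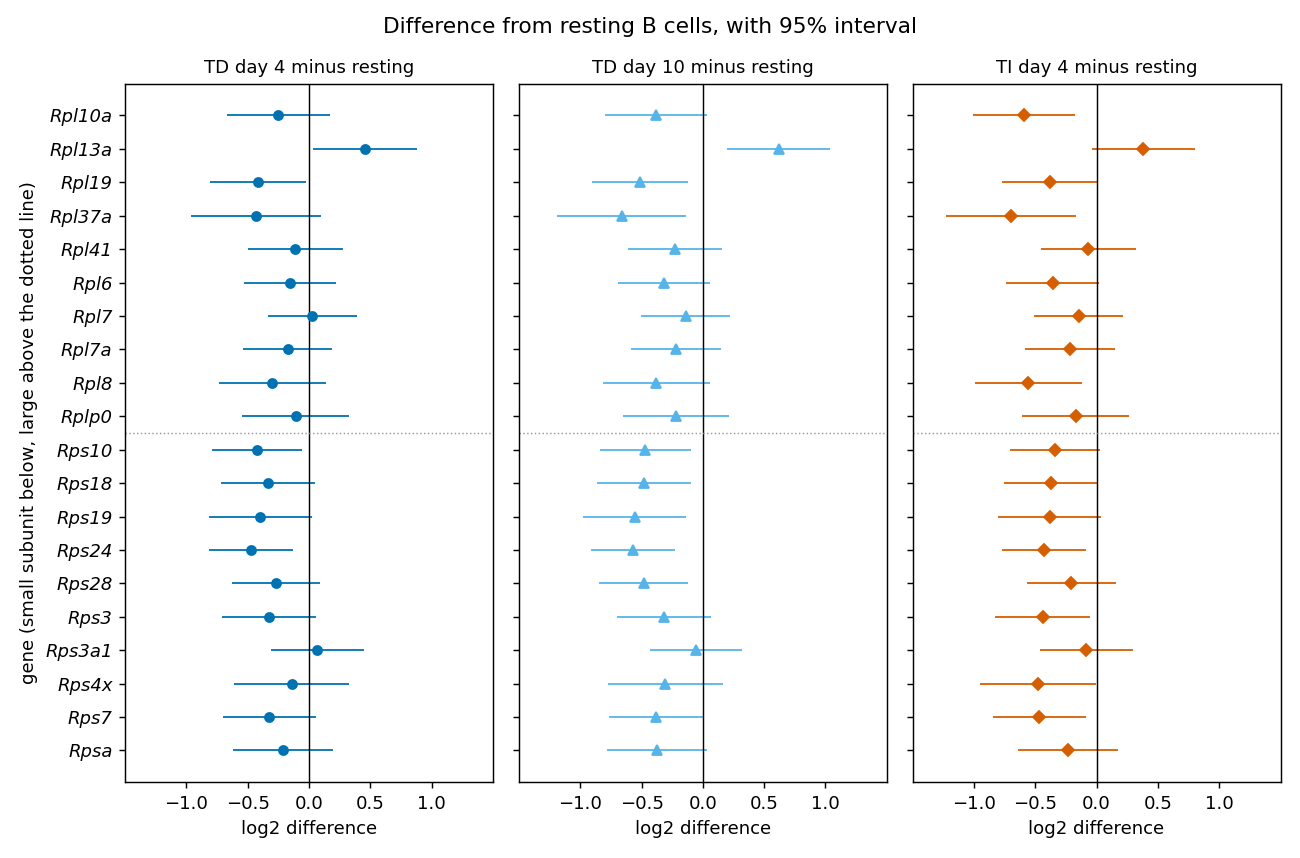
Log2 difference of each germinal centre group from resting cells for the 20 bright genes, with 95% intervals from limma, 1 panel per group and small subunit genes below the dotted line. Rpl13a is right of 0 in all panels, most other genes are left of it, and Rps24 has differences of -0.47, -0.57 and -0.43 from the left panel to the right.

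In the separate comparisons with resting cells, which share the 2 resting arrays, 0 of the 32 genes passed (limma, Benjamini-Hochberg). In TD day 4 this stood beside 9.42% of all probe sets called, with 5 of the genes under an unadjusted p of 0.05 (22.3% of all) and a median log2 difference of -0.23 (-0.02 over all probe sets tested). In TD day 10 the background was 10.9%, with 10 genes under an unadjusted p of 0.05 (23.5% of all) and a median of -0.32 (0.04 over all). In TI day 4 the background was 9.4%, with 9 genes under an unadjusted p of 0.05 (22.9% of all) and a median of -0.26 (-0.02 over all). The smallest adjusted p in TD day 4 and TD day 10 was that of Rps24 (0.103 and 0.055). In TI day 4 it was that of Rpl10a (0.097), whose log2 difference from resting was -0.59. Rpl37a, Rpl8 and Rps24 came after it, with adjusted p of 0.116, 0.124 and 0.130. Both arrays of the germinal centre group lay below both resting arrays in 17 of the 32 genes at TD day 4 (24.9% of all probe sets tested), 20 at TD day 10 (22%) and 20 at TI day 4 (24.8%).

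Both subunits had negative medians. The 15 large subunit genes had a median log2 difference of -0.20 and the 17 small subunit genes one of -0.36 between germinal centre and resting cells. For the 10 bright genes of each, the medians were -0.24 and -0.38, and 6 large and 8 small subunit genes had both resting arrays highest. That order held for 12.1% of all probe sets tested and for 41.4% of the other probe sets that averaged 5000 units or more. By group, the bright large and small subunit medians were -0.17 and -0.33 in TD day 4, -0.27 and -0.42 in TD day 10, and -0.29 and -0.38 in TI day 4. The difference between the subunits was not tested, since the genes of a subunit share their arrays and are not replicates.

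The arrays differed within the resting group as well. Each bright gene's log2 signal was set against its own mean over the 8 arrays, and the median of these deviations was taken per array. Large subunit genes had median deviations of 0.31 and 0.08 on resting arrays 1 and 2, 0.06 and -0.02 in TD day 4, -0.13 and -0.06 in TD day 10, and -0.11 and -0.08 in TI day 4. Small subunit genes had 0.39 and 0.16, -0.03 and -0.06, -0.19 and -0.12, and -0.10 and -0.02 in the same order. Both subunits were highest on resting array 1, next highest on resting array 2 and lowest on TD day 10 array 1. Of the 20 bright genes, 19 read higher on resting array 1 than on resting array 2, by a median of 0.24 on the log2 scale, against 0.07 over all probe sets tested. Without resting array 1 the median difference of all 32 genes in TD day 4 was -0.10 in place of -0.23, and without resting array 2 it was -0.38.

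As a share of all positive signal on an array, the 20 bright genes made up 6.08% and 5.54% on the resting arrays, 5.23% and 5.17% in TD day 4, 4.85% on both TD day 10 arrays, and 4.89% and 4.91% in TI day 4. The 2 resting arrays had the highest shares, and the resting group also had the widest spread (5.81% ± 0.383, SD, n = 2). These shares add up probe sets of unequal brightness and are not a share of messages.

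The size of the difference depended on how the arrays were scaled to each other. Quantile normalization, which gives every array the same distribution, brought the median of the 32 genes between germinal centre and resting cells from -0.29 to -0.08, and cyclic loess, which evens out differences along the range of brightness, brought it to -0.13. The median over all probe sets tested stayed within 0.01 of 0 under both. Under quantile normalization the bright large subunit genes had a median of -0.04 and the small subunit genes one of -0.14. Rpl7, Rpl7a, Rplp0, Rps3a1 and Rpsa then had a positive difference, and Rps24 was no longer called. Under quantile normalization the lowest large and small subunit deviations were those of TI day 4, at -0.06 and -0.07 for the large and -0.06 and -0.05 for the small subunit, while TD day 10 stood at 0.02 and 0.05 for the large and 0.02 and 0.01 for the small. The order of the germinal centre groups therefore changed with the scaling.

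**Figure D3:**
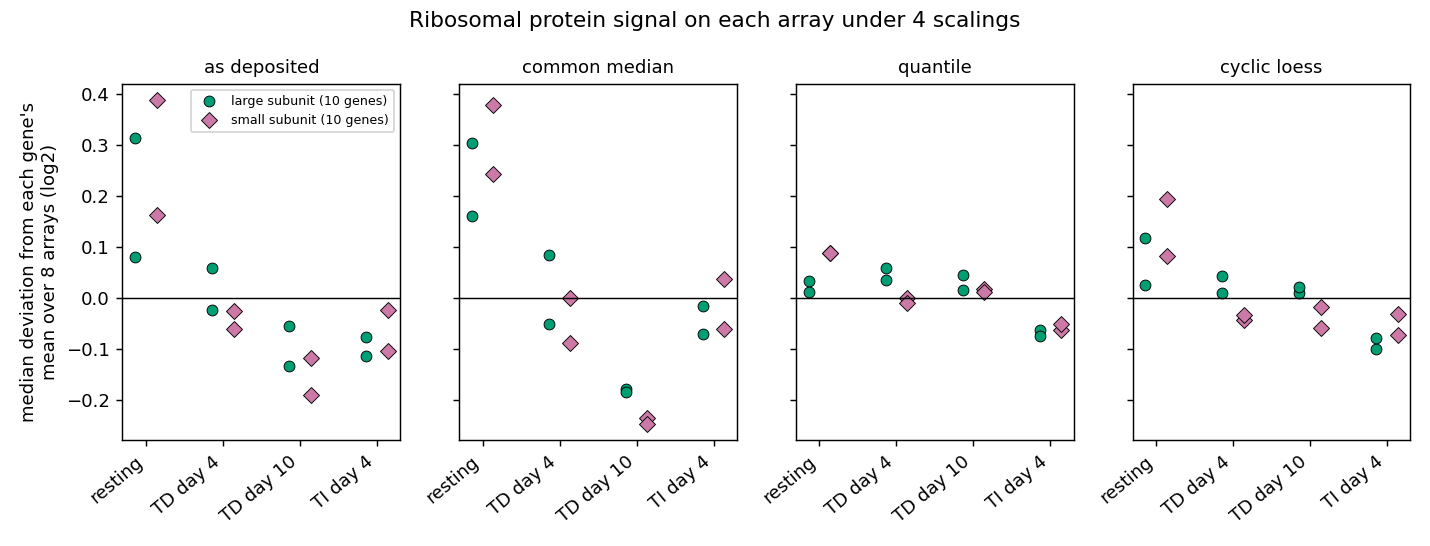
Median deviation of the 10 bright large subunit genes and the 10 bright small subunit genes from each gene's mean over 8 arrays (log2), for each array, under 4 ways of scaling the arrays; each marker is 1 array. Resting array 1 stands at 0.31 (large) and 0.39 (small) as deposited and at 0.03 and 0.09 after quantile normalization.

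Other bright probe sets also read lower in germinal centre cells. Left out here were probe sets that name 1 ribosomal protein gene, alone or with pseudogenes or predicted genes. Any that name such genes in another way were not removed. The 70 others tested that averaged 5000 units or more had a median log2 difference of -0.20, with 46 negative and 24 positive. Of the 70, 41.4% had both resting arrays highest. The bright ribosomal protein genes, at a median of -0.34 with 14 of 20 in that order, thus lay on the same side as other probe sets of like brightness, while the median over all 7253 was 0.00. By group, the bright ribosomal protein genes and the 70 others had medians of -0.26 and -0.21 in TD day 4 and -0.38 and -0.32 in TD day 10. In TI day 4 the medians were further apart, at -0.37 and -0.08. The difference between these 2 sets was not tested. The bright ribosomal protein genes had a median within-group SD of 0.097 on the log2 scale, against 0.103 for these 70 other bright probe sets and 0.27 over all probe sets tested. With a prior variance that follows brightness, and with robust estimation, 12 of the 32 genes were called, 11 lower and Rpl13a higher. The share of all probe sets called under that setting is not given here, so this count is not set against it.

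**Figure D4:**
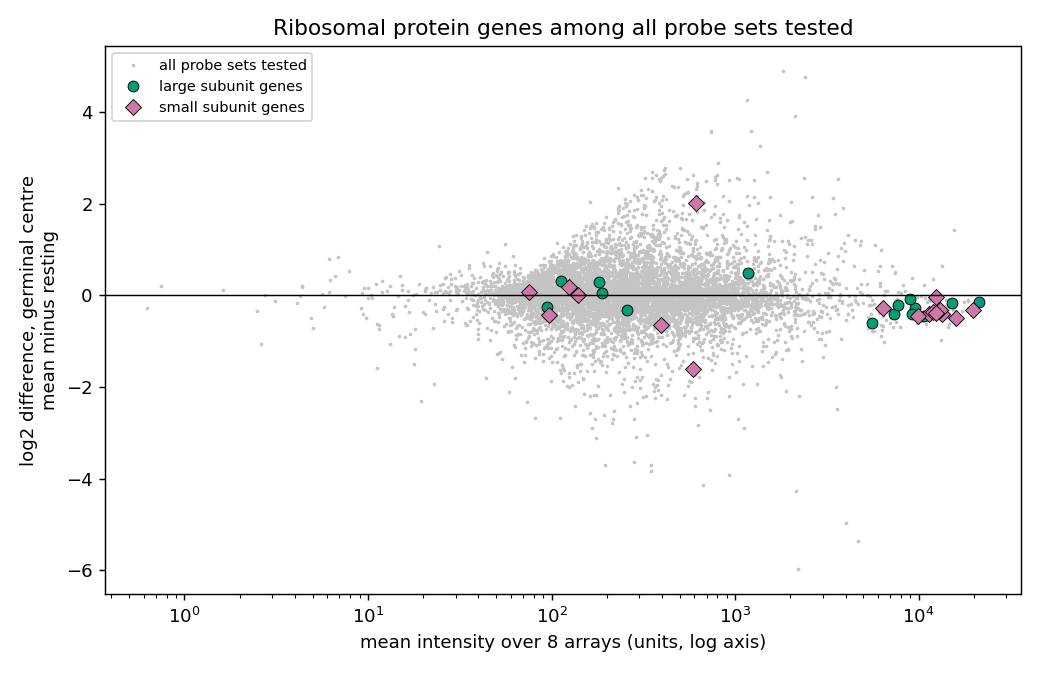
Log2 difference between the germinal centre mean and resting cells against mean intensity over 8 arrays (log axis) for every probe set tested (grey), with the tested large and small subunit genes marked; 104 probe sets with a mean at or below 0 are not drawn. The bright ribosomal protein genes sit at the right edge, mostly between 0 and -0.60, and the dim ones scatter between -1.60 and 2.02.

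The 12 dim genes varied more between replicates and gave few clear values. Rps13, which lies on the platform side of the small subunit, read 432 and -139 in resting cells, 899 and 798 in TD day 4, 790 and 608 in TD day 10, and 796 and 700 in TI day 4. All 6 germinal centre arrays were above both resting arrays, and with resting array 2 at the floor the signal was at least 4.06-fold higher, which did not pass (adjusted p = 0.076). Rps29, a zinc-binding small subunit protein, read 1017 and 1027 in resting cells, 936 and -71 in TD day 4, 720 and 475 in TD day 10, and 704 and -64 in TI day 4. Both resting arrays were the highest, 1 array of TD day 4 and 1 of TI day 4 were below 0, and the log2 difference with these arrays set to the floor was -1.60, with an interval of -4.28 to 1.09. A dimmer Rps29 probe set read 176 and 193 in resting cells and 98 to 268 in germinal centre cells, so its groups overlapped (-0.37). Rps27, a zinc-binding small subunit protein, read 493 and 435 in resting cells and 115 to 983 in the others, with both extremes in germinal centre cells.

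Rpl22, which is needed for normal lymphocyte development in mice, read 151 and -64 in resting cells and 36 to 191 in germinal centre cells, a span that crosses the floor. A second Rpl22 probe set read 36 and 16 in resting cells and 53 to 166 in germinal centre cells, without overlap. With both resting arrays set to the floor its log2 difference was 0.44 (limma adjusted p = 0.32). Rpl32 read 125 and 235 in resting cells and 89 to 341 in the others. Rpl38, known for the translation of Hox messages, read 185 and 124 in resting cells, 159 and 126 in TD day 4, 187 and 233 in TD day 10, and 209 and 233 in TI day 4. Neither resting array was an extreme for Rpl32, and Rpl38 overlapped between resting and germinal centre cells. The probe sets that represent Rpl39, Rps15, Rps20 and Rps4l stayed between 48 and 185 units with overlapping groups. A second Rps4l probe set read 196 and 123 in resting cells and 69 to 116 in germinal centre cells. Its resting arrays were both the highest, and the log2 difference was -0.70 with 2 germinal centre arrays at the floor (limma adjusted p = 0.088). Among the paralogs, Rpl7l1 read 279 and 329 in resting cells and 232 to 261 in germinal centre cells (-0.31, adjusted p = 0.203), and Rps27l, a p53 target, read 226 and 13 in resting cells and 14 to 303 in the others.

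Between T-independent and T-dependent cells at day 4, the comparison the design matched for time, the ribosomal protein signal showed no called difference. None of the 32 genes passed (limma, Benjamini-Hochberg), beside 1.45% of all probe sets, and 1 gene was under an unadjusted p of 0.05, beside 14.4% of all. The median log2 difference was -0.07, against -0.01 over all probe sets tested. The 20 bright genes lay between -0.34 and 0.09, and their 95% intervals together ran from -0.80 to 0.46. For the bright small subunit genes the median was -0.03 and for the bright large subunit genes -0.12. Both TI arrays lay below both TD day 4 arrays in 11 of the 32 genes and above in 6, against 26.3% and 23.1% of all probe sets.

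Rpl10a and Rps4x had the largest differences among the bright genes. The TI day 4 arrays of Rpl10a (6031 and 5811) lay below the TD day 4 arrays (7644 and 7337), a difference of -0.34 ± 0.17 (SE, 95% interval -0.76 to 0.08, adjusted p = 0.471). Those of Rps4x (11664 and 10175) lay below 13953 and 13506, a difference of -0.33 (95% interval -0.80 to 0.14). At the other end Rps10 and Rps28 had differences of 0.09 and 0.07, with TI day 4 above TD day 4 on all arrays. Rps24 differed by 0.04 (95% interval -0.30 to 0.38) and Rpl37a by -0.26 (-0.79 to 0.27). The gene under an unadjusted p of 0.05 was Rpl38, with a difference of 0.64 ± 0.26 (SE) and an adjusted p of 0.33.

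The other comparisons among germinal centre groups likewise gave 0 calls of 32 (limma, Benjamini-Hochberg). For TD day 10 against TD day 4, 0% of all probe sets were called, 1 member (Rpl32) was under an unadjusted p of 0.05 beside 5.14% of all, and the median was -0.09 against 0.02 over all. Of the 20 bright genes, 18 read lower in TD day 10, with differences between -0.23 and 0.16 and a median of -0.12. The 70 other probe sets that averaged 5000 units or more also had a median of -0.12, with 53 negative and 17 positive. Rpl32 read 89 and 144 in TD day 4 and 341 and 217 in TD day 10 (adjusted p = 0.826). For TI day 4 against TD day 10, 2.4% of all probe sets were called, and 1 member (Rps27) was under an unadjusted p of 0.05, beside 17.2% of all. The bright genes lay between -0.24 and 0.28, and Rps28 was the highest, with 19522 and 20627 in TI day 4 against 16457 and 16667 in TD day 10 (0.28 ± 0.15, SE, adjusted p = 0.419). The order of medians was small above large subunit there (0.12 and -0.02), and no test was made of that difference.

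Widening the rule gave a fuller view of the ribosome. Many probe sets name a ribosomal protein gene together with pseudogenes or predicted genes of like sequence, and including those with 1 ribosomal protein gene, a choice made after the values were seen, gave 63 genes of which 58 were tested. Germinal centre cells had a median log2 difference of -0.28 from resting cells, 50 of the 58 were negative, and 4 were called lower and 0 higher, beside 5.5% and 7.73% of all probe sets. Rps24 was 1 of these 4, and Rps27, represented by another probe set, was another, with a difference of -0.63 (adjusted p = 0.024). Between TI day 4 and TD day 4 the median was -0.08 and 0 were called. Of the 100 brightest probe sets tested, 42 belonged to this wider set. Ribosomal protein messages resemble their many processed pseudogenes, so a probe set may read more than 1 source, and this holds for the 35 genes too.

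Genes that build and run the ribosome had list medians between -0.20 and 0.12 in the same comparison, apart from a list with 1 tested gene. Of 48 genes of ribosome biogenesis, 31 were tested, and 2 were called higher and 0 lower in germinal centre than in resting cells, with a median of 0.02. Over all probe sets 7.73% were called higher and 5.5% lower. Ncl, the nucleolar protein nucleolin, read 300 and 467 in resting cells, 1333 and 1659 in TD day 4, 1522 and 1467 in TD day 10, and 1082 and 620 in TI day 4, a 3.26-fold rise (limma adjusted p = 0.012). Npm1, the nucleolar chaperone nucleophosmin, read 619 and 511, 1550 and 2423, 1868 and 1656, and 823 and 801 in the same order, a 2.50-fold rise (adjusted p = 0.010). In both genes all germinal centre arrays were above the resting arrays and the TI day 4 arrays were the lowest of the germinal centre groups.

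In TI day 4 against TD day 4, 28 of the 31 biogenesis genes had a negative difference, with a median of -0.38, and the median lay between -0.42 and -0.24 over 20 alternatives. Over all 7253 probe sets 3785 were negative, with a median of -0.01. Of the 31 genes 1 was called, beside 1.45% of all probe sets, namely Pno1, an assembly factor of the small subunit. It read 217 and 204 in TD day 4, 188 and 178 in TD day 10 and 67 and 97 in TI day 4, beside 102 and 109 in resting cells. With TI array 1 at the floor, it was at least 2.37-fold lower than in TD day 4 (adjusted p = 0.028). Against TD day 10, where 2.4% of all probe sets were called, Pno1 was called again, with Nop10, part of the pseudouridine-forming particles, at 998 and 1038 against 2010 and 1993 (1.97-fold lower, adjusted p = 0.048). The ribosomal protein genes had medians of -0.07 and -0.02 in these comparisons. The 2 comparisons share the TI day 4 arrays, and the difference between the lists was not tested.

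Of 21 genes of RNA polymerase I and its factors, which transcribe ribosomal RNA, 16 were tested, with 2 called higher and 1 lower in germinal centre cells (13.2% of all probe sets called) and a median of -0.13. Polr1d, a subunit shared with RNA polymerase III, read 112 and 83 in resting cells and 237 to 357 in germinal centre cells, a 2.92-fold rise (adjusted p = 0.0071), and Znrd1 rose 1.52-fold. Taf1c, a selectivity factor subunit, was at least 2.07-fold lower. Of 41 translation factors, 32 were tested, 1 was called higher and 0 lower (13.2% of all probe sets called), and the median was 0.06. The call was Eif1ax, an initiation factor for start codon choice, with 304 and 274 in resting cells and 440 to 673 in germinal centre cells (1.98-fold, adjusted p = 0.0052).

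Of 21 genes with TOP messages that lie outside the ribosome, 16 were tested, 2 were called higher and 0 lower (13.2% of all probe sets called), and the median was 0.05. The 2 were Nap1l1, a histone chaperone, with 219 and 328 in resting cells and 731 to 1413 in germinal centre cells (4.17-fold, adjusted p = 0.0022), and Npm1, which is on both lists. Of 25 regulators in the mTOR and Myc pathways, 14 were tested, with 1 called higher and 2 lower (7.73% and 5.5% of all probe sets). Akt1, a kinase upstream of mTOR, rose 2.74-fold. Sesn1, an inhibitor of mTOR signalling, was 3.80-fold lower, and Mxd4, a partner of Max that opposes Myc, was 1.96-fold lower. Mxd4 read 1251 and 1113 in resting cells, 770 and 481 in TD day 4, 278 and 312 in TD day 10, and 1228 and 1198 in TI day 4, so its TI day 4 arrays lay within the range of the resting arrays. Of 10 genes on the list of S6 kinases, 1 was tested and it was not called.

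The mitochondrial ribosome gave a comparison within the same kind of machine. Of 61 genes, 56 were tested, and 7 were called higher and 1 lower in germinal centre than in resting cells, with a median of 0.12. There were 20 genes under an unadjusted p of 0.05, beside 25.8% of all probe sets. Mrpl21 read 182 and 229 in resting cells, 326 and 349 in TD day 4, 324 and 332 in TD day 10, and 495 and 479 in TI day 4, a 1.85-fold rise (adjusted p = 0.011). Mrpl18 read 1041 and 994 in resting cells and 1670 to 1963 in germinal centre cells, a 1.74-fold rise (adjusted p = 0.013). Mrpl24 was the gene called lower, at 610 and 659 in resting cells against 390 to 430 (1.54-fold, adjusted p = 0.023). The 8 of 56 called stand beside 13.2% of all probe sets. Between TI day 4 and TD day 4, 0 of the 56 were called (limma), beside 1.45% of all probe sets, with a median of -0.09. There were 6 genes under an unadjusted p of 0.05, beside 14.4% of all.

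**Figure D5:**
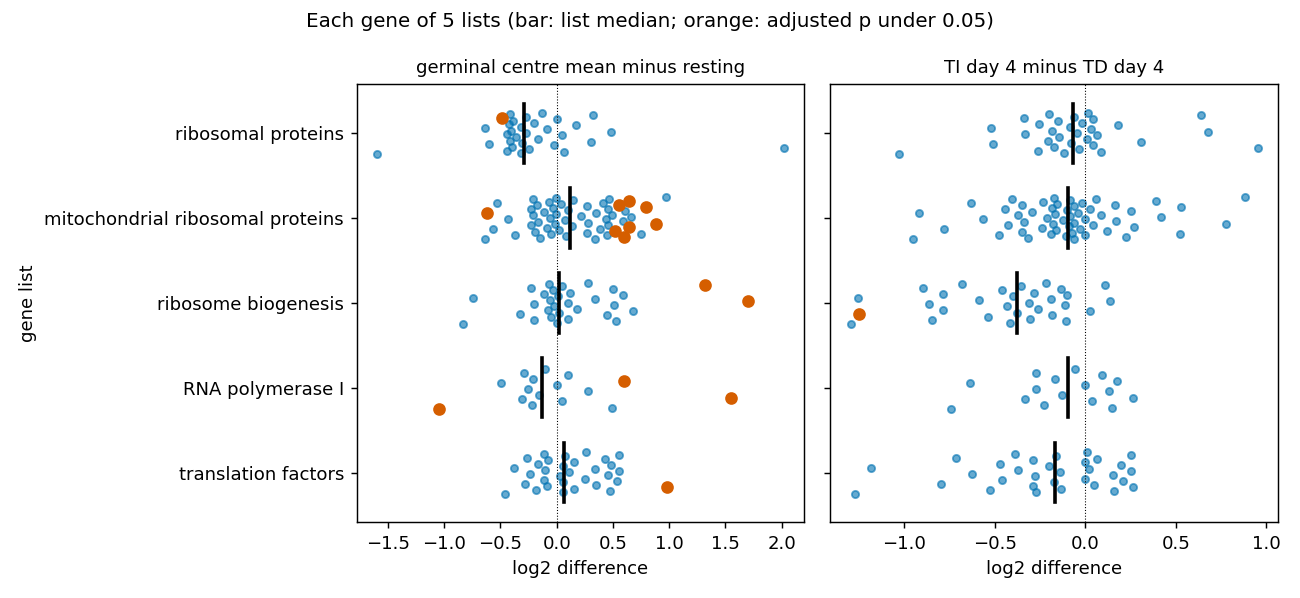
Log2 difference of every tested gene of 5 lists, for germinal centre against resting cells (left) and TI day 4 against TD day 4 (right); black bars are list medians and orange marks genes with an adjusted p under 0.05. In the left panel the ribosomal protein genes have their median at -0.29 with 1 call, and in the right panel the ribosome biogenesis genes have theirs at -0.38 with 1 call.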

How the data were processed

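The arrays are Affymetrix mouse arrays, 2 for each of 4 groups, from RNAzol RNA. The values are intensities deposited by the authors on a linear scale; which software and scaling made them is not given in the sources used here. Of these whole numbers 30.1% are at or below 0, and no further normalization was applied. Control probe sets were left out of the tests. Values under the 50th percentile (81) were set to it, log2 was taken, and probe sets above it on at least 2 arrays were tested (7253 of 12488). Differences were fitted in limma 3.58.1 (R 4.3.3) with 1 model of 4 groups on 8 arrays (4 residual and 2.20 prior degrees of freedom), two-sided, at a Benjamini-Hochberg adjusted p of 0.05 over all tested probe sets. Where arrays of the dimmer side are at the floor, a fold is given as at least that size. Precision is limited by the number of arrays.

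In the platform annotation 10833 probe sets carry 1 gene symbol, 396 carry several and 1237 carry none. Positions of probe sets are not analysed here. The members, lists and tests were chosen with earlier results of these data known. Named genes are, per comparison, those called or the 5 of each direction with the smallest p, the untested members, paralogs, the brightest and dimmest members, and the 3 called genes with the smallest p of each pathway list. Because members were few, nearly all were named. Lists are described by counts and medians, with no set test. In simulated data of the same size (5 draws, 200 changed probe sets), the germinal centre against resting comparison found 45.4% of 2-fold and 79.4% of 4-fold changes.

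Replicate numbers did not pair the arrays. The correlation of deviations between same-numbered arrays of 2 groups ran from -0.22 to 0.12, and the labels name no pairing.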

Additional observations from a re-analysis of the deposited data

How the results depend on the processing

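Alternatives changed 1 choice at a time, except the trended and robust prior, which changes 2. No ribosomal protein gene was called between germinal centre groups under any of them. For germinal centre against resting cells, the 1 call became 0 with quantile normalization, cyclic loess, a floor at the 40th percentile, a pseudocount in place of the floor, array weights or the dimmest probe set. The count was 2 without a filter, 2 with the Gapdh ratio as a covariate (Rpl37a and Rps13, with Rps24 no longer called), 4 with a floor at the 60th percentile or the widened set, and 12 with a trended and robust prior. With the replicate number as a block, 0 were called. In TD day 4 against resting, 1 was called without a filter and in the widened set, and 3 with the trended and robust prior. In TD day 10, 1 was called with a common median, 2 with the floor at the 60th percentile, no filter or the widened set, and 8 with the trended and robust prior. In TI day 4, 1 was called without a filter, with the covariate or in the widened set, and 5 with the trended and robust prior. For alternatives that refit the data, the share of all probe sets called is not given here, so these counts are not set against it.

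Medians moved too. Quantile normalization gave -0.083, -0.10, -0.016 and -0.14 for germinal centre, TD day 4, TD day 10 and TI day 4 against resting, and cyclic loess -0.13, -0.11 and -0.074 for the first 3. A common median gave -0.44 for TD day 10 against resting and 0.12 for TI day 4 against TD day 10. Cyclic loess gave 0.0078 for TD day 10 against TD day 4. The covariate gave 0.070 and 0.16 for TI day 4 against TD day 4 and TD day 10. Genes with a mean of 1000 or more, a limit chosen after seeing the data, gave -0.37 for TI day 4 against resting.

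Leaving out each array in turn gave 0 to 1 calls in each comparison with resting. The medians then ran from -0.42 to -0.23 for germinal centre, -0.38 to -0.10 for TD day 4, -0.42 to -0.20 for TD day 10 and -0.43 to -0.24 for TI day 4. Without resting array 1 the called gene was Rps13, and without resting array 2 it was Rpl37a.

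For germinal centre against resting, signs turned with quantile normalization for Rpl7 (0.11), Rpl7a (0.071), Rplp0 (0.12), Rps3a1 (0.26) and Rpsa (0.025), and with cyclic loess for Rpl41 (0.098), Rpl7 (0.073), Rplp0 (0.037) and Rps3a1 (0.16). Rpl19 turned at its dimmest probe set (0.064). Leaving out each array in turn, Rplp0 ran from -0.35 to 0.013 (without resting array 1) and Rps3a1 from -0.11 to 0.065 (without resting array 1), with 0.0030 without TI day 4 array 2. The cause was not tested. Signal near the floor limits the 12 dim genes.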
